A study of Mus musculus with 6 samples.

Results

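The Kruppel-like factors are DNA-binding proteins, and 10 of their genes were followed here: Klf2, Klf3, Klf4, Klf5, Klf6, Klf7, Klf9, Klf10, Klf13 and Klf15. They were taken by gene symbol from a table of 55471 Ensembl gene identifiers. All 10 were found once and passed the minimum for testing, a mean of 1 RPKM over the 6 libraries. RPKM is reads scaled to gene length and to mapped reads. Klf15 passed that minimum only through the libraries labelled Bap1 cKO. In those libraries 3 of the 10 genes were higher (Klf4, Klf13 and Klf15) and 4 were lower (Klf6, Klf7, Klf9 and Klf10). Klf2, Klf3 and Klf5 did not pass the test.

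Kruppel-like factors bind GC-rich and CACCC elements through a block of zinc fingers at the end of the protein, and they differ in the partners that the rest of the protein recruits. Klf2, Klf4, Klf5, Klf6 and Klf7 act largely through activation domains, Klf3 recruits the corepressor CtBP, and Klf9, Klf10 and Klf13 recruit the corepressor scaffold Sin3a. In mesenchymal cells they are best known for setting the course of fat cell formation, which Klf4, Klf5, Klf6, Klf9 and Klf15 promote and Klf2, Klf3 and Klf7 restrain.

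Polyadenylated RNA was sequenced from mesenchymal stromal cells of the endosteum, the lining of the marrow cavity, taken from C57BL/6J mice. The labels place 3 libraries in the Bap1 cKO group (Prx1-cre;Bap1fl/fl) and 3 in the Bap1 WT group (Bap1fl/fl), so both groups carry the floxed allele and differ in the Cre transgene. The Prx1 promoter drives Cre in limb mesenchyme, so deletion is limited to cells of that descent. Per the series title the comparison concerns how Bap1, a histone H2A deubiquitinase, shapes the stromal niche for lymphocyte formation. No age is given, and nothing in the labels shows whether replicates are different mice; each p-value below therefore reflects the spread among 6 libraries, which may be technical.

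Bap1 measured 28.27, 25.16 and 22.99 RPKM in the cKO libraries and 22.8, 22.72 and 24.01 RPKM in the WT libraries (limma, Benjamini-Hochberg adjusted p = 0.29), a whole-gene value that cannot show whether floxed exons were removed and so does not check the labels. Estimated depth, counted in 1e6 fragments, was 13.1 to 22.1 in the cKO libraries and 13.2 to 14.8 in the WT libraries. Of 10 stromal markers, 6 of the 9 tested were lower and 1 higher in the cKO libraries. Over all genes tested 26.5% were lower and 34.7% higher, which holds beside each marker count below. The stromal markers summed to 131 to 236 RPKM in the cKO libraries and 2166 to 2290 RPKM in the WT libraries. Lum was at 0 in all 6 libraries. The epithelial transcription factor Pax8 measured 180.94, 243.21 and 124.15 RPKM in the cKO libraries and 0.19, 0.21 and 0.12 RPKM in the WT libraries, while the epithelial markers Epcam and Cdh1 reached at most 0.29 and 0.12 RPKM anywhere. Pax8 was part of a list of 10 tubule epithelium markers, of which 1 of the 3 tested was higher and 2 lower, with sums of 132 to 251 RPKM in the cKO libraries and 20.2 to 27.8 RPKM in the WT libraries. The 8 endothelial and 8 blood markers summed to at most 0.81 and 1.57 RPKM in any library, with Tie1, Sox17, Cd3e and Adgre1 among those at 0 in all 6. The 5 osteoblast markers summed to 0.16 to 0.46 RPKM in the cKO libraries and 23.3 to 24.5 RPKM in the WT libraries, with Alpl, alkaline phosphatase, at 0.153 ± 0.0586 RPKM in the cKO libraries and 22.8 ± 0.622 RPKM in the WT libraries (SD). The libraries of the groups thus differed in lineage genes as well as in the genes below, and the part of that difference in the Klf results was not tested. In bulk RNA, fewer cells of a type and less RNA per cell cannot be told apart.

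Over the 12223 genes tested, 61.2% passed limma at a Benjamini-Hochberg adjusted p under 0.05, with 34.7% higher and 26.5% lower in the cKO libraries. The 7 of 10 Klf genes that passed are near that background, as are the 8 of 10 whose groups did not overlap, against 69% of all genes tested. Of those, 4 were higher and 4 lower in every cKO library than in every WT library, against 39.2% and 29.8% of all genes tested. Klf4, Klf9, Klf10, Klf13 and Klf15 passed with an absolute log2 difference of at least 1, which 25.6% of all genes tested did. The median log2 difference was 0.02 over the 10 Klf genes and 0.09 over all genes tested. What sets the members apart from one another is the direction and size of each, not how many passed.

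**Figure D1:**
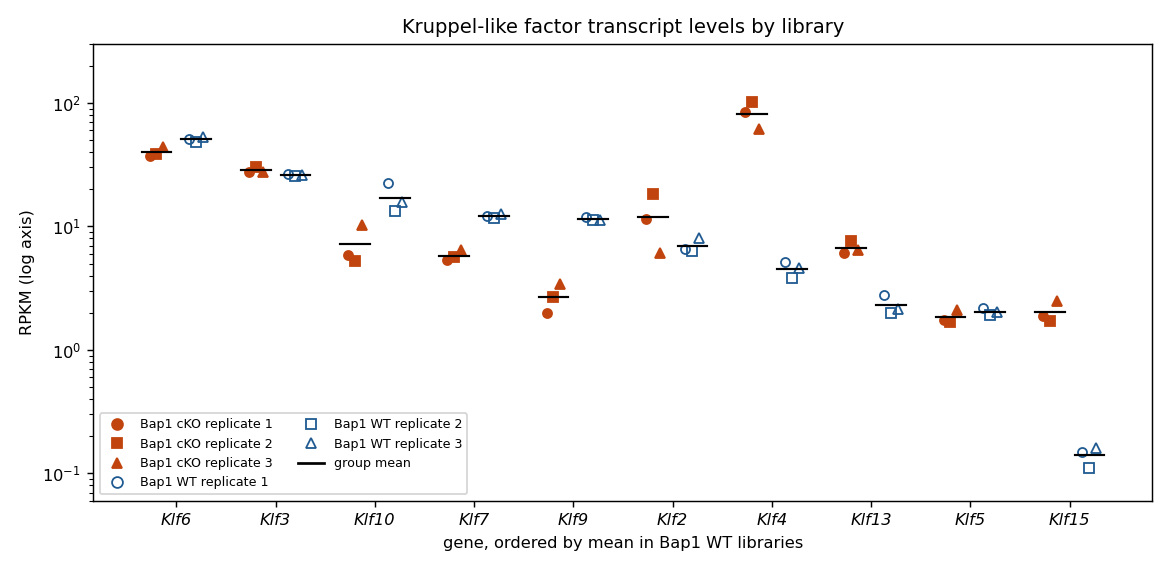
RPKM (log axis) of the 10 Klf genes in each library, with Bap1 cKO libraries (filled) left of Bap1 WT libraries (open) and the group mean as a bar. Klf4 moved to the top of the order in the cKO libraries, at 60.92 to 101 RPKM, while Klf15 measured 0.11 to 0.16 RPKM in the WT libraries.

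Klf4, one of the classical reprogramming factors and a regulator of epithelial barriers and of smooth muscle state, differed most. Its level was 84.2, 101 and 60.92 RPKM in the cKO libraries and 5.11, 3.82 and 4.58 RPKM in the WT libraries. Every cKO library lay above every WT library, with replicate 3 the lowest of the cKO libraries. The ratio of the group means was 18.2, and the log2 difference on the log2(RPKM + 1) scale was 3.89 ± 0.20 (SE, n = 3 libraries per group here and below; limma, Benjamini-Hochberg adjusted p = 1.75e-05). Its absolute difference was larger than that of 97.8% of the genes tested. In the cKO libraries Klf4 stood above 89.9% of the genes tested, and in the WT libraries above 25.3%. The gene (ENSMUSG00000003032) lies on the minus strand of chromosome 4, 55527143 to 55532466 (GRCm38), a chromosome whose tested genes had a median log2 difference of 0.44.

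Klf4 is an immediate early gene in many cells, so other genes of that class are given beside it. Of 19 immediate early genes tested, 10 were higher, against 34.7% of all genes tested, and 9 did not pass. Their median log2 difference was 1.10, against 0.09 over all genes tested. Without cKO replicate 3, 1 passed as lower. Egr1, a serum-response transcription factor, averaged 106 ± 23.6 RPKM in the cKO libraries and 11.7 ± 3.28 RPKM in the WT libraries (SD). Fos, a subunit of the AP-1 factor, averaged 48.9 ± 19.4 RPKM in the cKO libraries and 3.13 ± 1.18 RPKM in the WT libraries. Socs3, the feedback inhibitor of cytokine signalling, averaged 27.6 ± 6.81 RPKM in the cKO libraries and 7.96 ± 0.749 RPKM in the WT libraries. The heat shock genes Hspa1a and Hspa1b, which are counted among the 19, did not pass (adjusted p = 0.42 and 0.65 in limma after Benjamini-Hochberg adjustment). The part of this class of genes in the Klf4 value was not tested.

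Klf2, the closest relative of Klf4, known for its response to shear in endothelium and for holding back fat cell formation, did not pass. It measured 11.48, 18.28 and 6.13 RPKM in the cKO libraries and 6.61, 6.31 and 8.05 RPKM in the WT libraries. The first and second cKO libraries lay above all WT libraries and the third below them, so the groups overlapped. The log2 difference was 0.59, with a 95% interval of -0.23 to 1.41 (limma, Benjamini-Hochberg adjusted p = 0.18). Without cKO replicate 3 it was 0.96 with an adjusted p of 0.00829, and with sample weights 0.78 with an adjusted p of 0.026 (limma in both), while without cKO replicate 2 it was 0.25 and did not pass. The gene (ENSMUSG00000055148) lies on chromosome 8, 72319033 to 72321656, plus strand.

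Klf5, which acts early in fat cell formation and in vascular remodelling, measured 1.74, 1.69 and 2.09 RPKM in the cKO libraries and 2.17, 1.9 and 2.02 RPKM in the WT libraries. The groups overlapped, and the log2 difference of -0.10 had a 95% interval of -0.41 to 0.22 (limma, Benjamini-Hochberg adjusted p = 0.55). In human breast cancer cells BAP1 is known to remove ubiquitin from the KLF5 protein, a step that a transcript level does not measure. The gene (ENSMUSG00000005148) lies on chromosome 14, 99298691 to 99315036, plus strand.

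Klf6, an injury-response factor, and Klf7, best known from axon growth, were both lower. Klf6 measured 37.48, 38.6 and 43.55 RPKM in the cKO libraries and 50.84, 48.37 and 53.11 RPKM in the WT libraries, with all cKO libraries below all WT libraries. Its log2 difference was small, -0.34 ± 0.09 (limma, Benjamini-Hochberg adjusted p = 0.0121), and it missed the threshold without WT replicate 3 (adjusted p = 0.0521). Klf7 measured 5.32, 5.68 and 6.39 RPKM in the cKO libraries and 12.12, 11.78 and 12.61 RPKM in the WT libraries. The WT mean was 2.10 times the cKO mean, the groups did not overlap, and the log2 difference was -0.96 ± 0.10 (limma, Benjamini-Hochberg adjusted p = 0.00031). Klf6 (ENSMUSG00000000078) lies on chromosome 13, 5861482 to 5870394, plus strand, and Klf7 (ENSMUSG00000025959) on chromosome 1, 64029447 to 64122282, minus strand.

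Klf3, the CtBP-recruiting repressor, measured 27.76, 30.44 and 27.7 RPKM in the cKO libraries and 26.32, 25.75 and 26.1 RPKM in the WT libraries. The groups did not overlap, yet the ratio of means was 1.10 and the log2 difference of 0.13 had a 95% interval of -0.05 to 0.31 (limma, Benjamini-Hochberg adjusted p = 0.18). With each chromosome centred on its median the sign turned, to -0.06. Klf3 (ENSMUSG00000029178) lies on chromosome 5, 64803388 to 64832901, plus strand. Annotated genes that overlap it measured no more than 0.88 RPKM in any library, and those that overlap Klf7, Klf9 and Klf13 were listed at 0 in all 6.

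Among the Sin3a-recruiting factors, Klf9 and Klf13 went in opposite directions. Klf9, a target of the glucocorticoid receptor, measured 1.98, 2.69 and 3.42 RPKM in the cKO libraries and 11.91, 11.33 and 11.21 RPKM in the WT libraries. The groups were far apart, the WT mean was 4.26 times the cKO mean, and the log2 difference was -1.77 ± 0.16 (limma, Benjamini-Hochberg adjusted p = 0.000162). It was the most lowered of the 10 genes. Klf13, first studied as an activator of Ccl5 in T lymphocytes, measured 6.12, 7.65 and 6.46 RPKM in the cKO libraries and 2.77, 2 and 2.14 RPKM in the WT libraries. All cKO libraries were above all WT libraries, the ratio of means was 2.93 and the log2 difference was 1.23 ± 0.14 (limma, Benjamini-Hochberg adjusted p = 0.000473). Klf13 (ENSMUSG00000052040, minus strand, 63886351 to 63938915) lies on chromosome 7, whose tested genes had a median log2 difference of 0.64. With each chromosome centred on its median, the Klf13 difference was 0.59 and still passed. Klf9 (ENSMUSG00000033863) lies on chromosome 19, 23141226 to 23168134, plus strand, where the median was -0.22.

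The ratio of Klf13 to Klf9, which does not depend on the scaling of a library, was 3.09, 2.84 and 1.89 in the cKO libraries and 0.233, 0.177 and 0.191 in the WT libraries. The Klf4 to Klf2 ratio was 7.33, 5.53 and 9.94 in the cKO libraries and 0.773, 0.605 and 0.569 in the WT libraries. In neither ratio did the groups overlap, and the order within each pair was turned round in every cKO library relative to the WT libraries. Both pairs were chosen after their values were seen and are given with no test.

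Klf10, the TGF-beta-inducible early gene first described in human osteoblasts, measured 5.91, 5.28 and 10.34 RPKM in the cKO libraries and 22.47, 13.27 and 15.65 RPKM in the WT libraries. All cKO libraries lay below all WT libraries, and the spread within each group, on the log2 scale, was the widest among the 4 lowered genes. The WT mean was 2.39 times the cKO mean, and the log2 difference was -1.17 ± 0.28 (limma, Benjamini-Hochberg adjusted p = 0.01). The gene (ENSMUSG00000037465) lies on chromosome 15, 38291463 to 38300706, minus strand.

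Genes of the TGF-beta pathway that leads to Klf10 were mixed. Of 9 tested, 4 were higher and 1 was lower, against 34.7% and 26.5% of all genes tested, and 4 did not pass. Without cKO replicate 3, 3 were lower. The receptor Tgfbr2 averaged 75.9 ± 21 RPKM in the cKO libraries and 30.5 ± 1.18 RPKM in the WT libraries (SD), and the signal transducer Smad3 averaged 33.1 ± 11.2 RPKM in the cKO libraries and 10.7 ± 0.785 RPKM in the WT libraries. Smad2 was the lowered member, at 21.1 ± 3.41 RPKM in the cKO libraries and 32.6 ± 0.434 RPKM in the WT libraries, with a log2 difference of -0.62 that was -0.39 with chromosomes centred. Tgfb1 was higher at a ratio of 1.68, a call that was lost with chromosomes centred (limma, Benjamini-Hochberg adjusted p = 0.665).

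Among the cKO libraries, replicate 3 was highest on Klf10 and on the TGF-beta feedback genes Smad7 and Skil, which did not pass. Smad7, the inhibitory Smad, measured 12.96, 12.22 and 28.21 RPKM in the cKO libraries and 30.93, 22.5 and 24.37 RPKM in the WT libraries. Skil, which encodes the Smad corepressor SnoN, measured 10.83, 9.99 and 20.74 RPKM in the cKO libraries and 11.32, 7.96 and 10.01 RPKM in the WT libraries. On Smad7 the first and second cKO libraries lay below all WT libraries and the third within their range; without cKO replicate 3 the log2 difference was -0.97 and passed (limma, Benjamini-Hochberg adjusted p = 0.00174). The contractile gene Acta2, smooth muscle actin, measured 68.78, 149.26 and 1532.34 RPKM in the cKO libraries and 2145.34, 1944.95 and 2012.09 RPKM in the WT libraries. Of 5 smooth muscle markers tested, only Acta2 was lower (limma, Benjamini-Hochberg adjusted p = 0.0432), against 26.5% of all genes tested, and 4 did not pass. The Acta2 call was lost without any 1 WT library and without cKO replicate 1 or 2 (adjusted p = 0.106 to 0.122 in limma). It was also lost with chromosomes centred (0.0597), a minimum mean of 0.1 RPKM (0.0504), no minimum (0.0832) and no variance trend (0.051, limma in all). Without cKO replicate 3 the Acta2 log2 difference was -4.31 and passed (limma, Benjamini-Hochberg adjusted p = 9.69e-05). The list of 6 summed to 140, 266 and 2948 RPKM in the cKO libraries and 2790, 2496 and 2603 RPKM in the WT libraries. On the log2(RPKM + 1) scale cKO replicate 3 lay 0.78 above the mean of replicates 1 and 2 for Klf10, 1.12 below it for Klf2 (a difference of -1.12) and 0.59 below it for Klf4 (-0.59). For the other 7 members the gap was between -0.07 and 0.41. Acta2, Smad7 and Skil were set beside Klf10 and Klf2 as measurements only, and their part in those values was not tested.

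**Figure D2:**
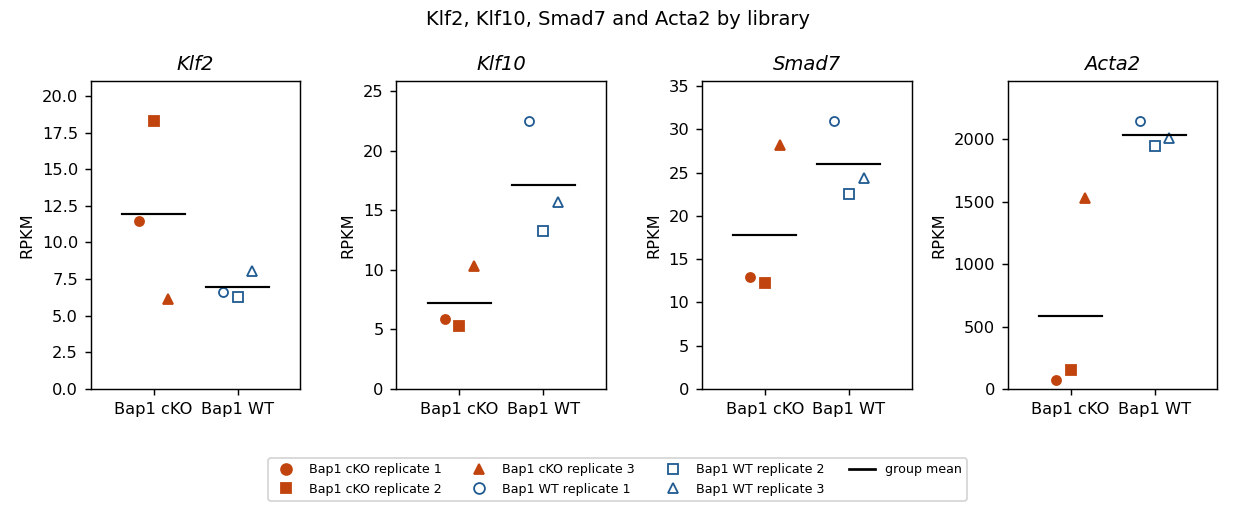
RPKM of Klf2, Klf10, Smad7 and Acta2 in each library, with Bap1 cKO libraries (filled) left of Bap1 WT libraries (open), the group mean as a bar and each vertical axis starting at 0. Bap1 cKO replicate 3 (filled triangle) is the lowest cKO library on Klf2 at 6.13 RPKM and the highest on Klf10 at 10.34 RPKM.

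Klf15, which drives amino acid breakdown and glucose production in liver and muscle and belongs to neither corepressor group, was close to the detection floor in the WT libraries. It measured 1.87, 1.71 and 2.5 RPKM in the cKO libraries and 0.15, 0.11 and 0.16 RPKM in the WT libraries. From the estimated depths and the median length of its annotated transcripts, 2373 bases, the WT values correspond to about 4.8, 3.2 and 5.3 fragments, and 3 fragments to 0.0931, 0.102 and 0.0912 RPKM. All cKO libraries lay above all WT libraries. The log2 difference was 1.40 ± 0.16 (limma, Benjamini-Hochberg adjusted p = 0.000469), a scale that understates the change of so low a gene. The ratio of means was 14.5 and rests on those few WT fragments. The gene (ENSMUSG00000030087) lies on chromosome 6, 90462576 to 90475238, plus strand, where the median log2 difference of tested genes was -0.25.

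**Figure D3:**
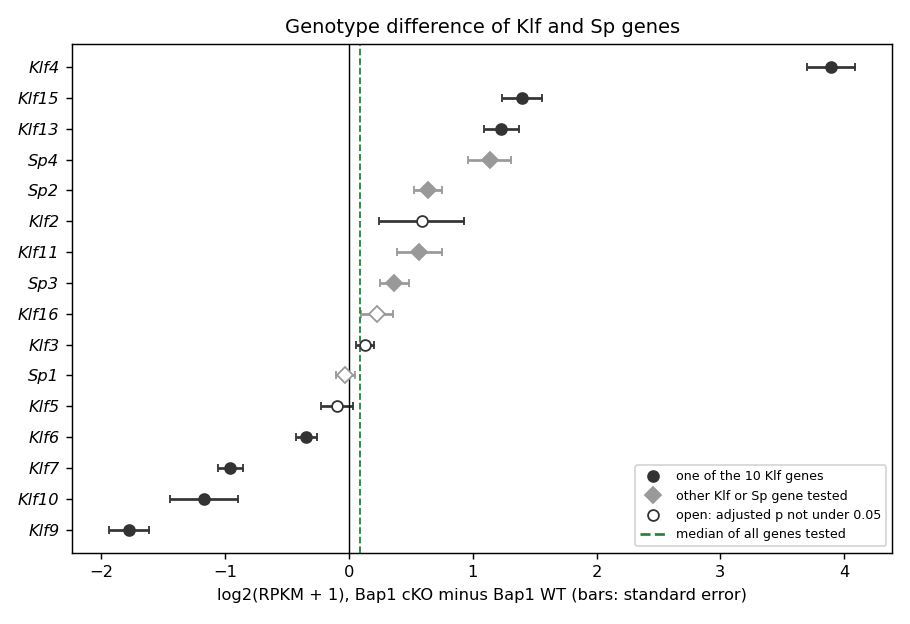
Difference in log2(RPKM + 1), Bap1 cKO minus Bap1 WT, with its standard error, for the 10 Klf genes (circles) and the other tested Klf and Sp genes (diamonds). Open symbols did not pass, and the dashed line marks the median of all genes tested, 0.09. Values run from -1.77 for Klf9 to 3.89 for Klf4.

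The promoters of the members that rose and fell most are shown to let the reader see how far they share simple elements. RefSeq held an entry for 8 of the 10 genes, with none for Klf5 and Klf10, and the 2 with the largest rise and the 2 with the largest fall among those 8 are printed. Each sequence is the 250 bases before the RefSeq transcription start on the gene's strand (GRCm38.p6). Capitals mark the CACCC box, the GC box GGGCGG and the letters TGACG (part of a cyclic AMP response element), searched on both strands, so that their reverse complements are marked too. Neighbouring or overlapping matches run together.
Klf4: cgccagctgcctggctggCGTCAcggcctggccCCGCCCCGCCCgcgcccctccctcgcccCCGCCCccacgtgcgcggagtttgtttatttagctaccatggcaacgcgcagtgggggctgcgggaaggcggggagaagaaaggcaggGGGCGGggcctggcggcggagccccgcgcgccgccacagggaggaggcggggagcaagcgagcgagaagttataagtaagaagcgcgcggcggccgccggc
Klf15: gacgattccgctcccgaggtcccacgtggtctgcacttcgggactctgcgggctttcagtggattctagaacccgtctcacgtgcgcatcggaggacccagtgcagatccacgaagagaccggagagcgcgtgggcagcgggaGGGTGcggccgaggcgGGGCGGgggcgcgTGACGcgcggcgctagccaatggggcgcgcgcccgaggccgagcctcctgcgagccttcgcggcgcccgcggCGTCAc
Klf9: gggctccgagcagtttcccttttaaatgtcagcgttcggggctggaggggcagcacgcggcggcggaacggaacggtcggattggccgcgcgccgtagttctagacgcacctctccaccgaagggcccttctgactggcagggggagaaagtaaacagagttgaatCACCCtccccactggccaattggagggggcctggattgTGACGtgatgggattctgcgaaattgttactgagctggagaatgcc
Klf7: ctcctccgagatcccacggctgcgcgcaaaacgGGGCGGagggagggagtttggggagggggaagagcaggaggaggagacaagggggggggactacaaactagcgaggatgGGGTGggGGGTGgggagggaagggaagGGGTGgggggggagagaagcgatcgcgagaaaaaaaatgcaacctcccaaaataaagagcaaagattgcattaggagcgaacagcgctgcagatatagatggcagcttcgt
The Klf4 window (chr4:55532476-55532725, minus strand) held 4 GC boxes, 1 TGACG match and no CACCC box, and the Klf15 window (chr6:90462326-90462575, plus strand) held 1 GC box, 2 TGACG matches and 1 CACCC box. The Klf9 window (chr19:23140976-23141225, plus strand) held no GC box, 1 TGACG match and 1 CACCC box, and the Klf7 window (chr1:64121390-64121639, minus strand) held 1 GC box, 3 CACCC boxes and no TGACG. Over all 32851 RefSeq promoter windows of the same length, 52% held a CACCC box, 32.7% a GC box and 17.8% a TGACG match. The share of G and C was 74% in the Klf4 window and 72% in the Klf15 window, above 95.1% and 93.1% of all windows, and 59.6% in the Klf9 window and 59.2% in the Klf7 window, above 71.1% and 70.1%. In the windows not printed the share was 78.4% for Klf3, with 6 GC boxes, and 71.2% for Klf2, neither of which passed the test. It was 71.6% for the raised Klf13 and 64.8% for the lowered Klf6. The printed windows were chosen by the differences of their genes, and a link of sequence to direction was not tested. A match describes the letters and does not show that a factor binds there.

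The order of levels within the family changed with genotype. In the cKO libraries the order of mean RPKM was Klf4, Klf6, Klf3, Klf2, Klf10, Klf13, Klf7, Klf9, Klf15 and Klf5. The first 3 were apart from one another and from the rest, and the ranges of Klf2 and Klf10, of Klf10 and Klf13, of Klf13 and Klf7, of Klf9 and Klf15 and of Klf15 and Klf5 overlapped. In the WT libraries the order was Klf6, Klf3, Klf10, Klf7, Klf9, Klf2, Klf4, Klf13, Klf5 and Klf15. There the ranges overlapped only between Klf7 and Klf9 and between Klf13 and Klf5 among neighbours in that order.

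Summed over the 17 Klf genes of the table, the level was 209, 240 and 192 RPKM in the cKO libraries and 161, 142 and 154 RPKM in the WT libraries, and the groups did not overlap. Without Klf4 the sum was 124, 139 and 131 RPKM in the cKO libraries and 156, 138 and 149 RPKM in the WT libraries. Klf4 was taken out after its values were seen, so the second sum is a description. Klf4 made up 40.4, 42.1 and 31.7% of the sum in the cKO libraries, against 3.17, 2.69 and 2.98% in the WT libraries. Klf6 made up 18.9 ± 3.40% in the cKO libraries and 33.4 ± 1.64% in the WT libraries (SD, n = 3 each). Together the Sin3a-recruiting genes (Klf9, Klf10, Klf11, Klf13, Klf14 and Klf16) made up 17.6, 16.5 and 21.3% in the cKO libraries and 35.6, 30.4 and 30.2% in the WT libraries. These are shares of summed RPKM, a measure of transcripts per length, and say nothing of protein. Klf4 is part of the sum, so a higher Klf4 level lowers the share of every other gene. A smaller share is therefore not by itself a lower level. Klf6 itself averaged 39.9 RPKM in the cKO libraries and 50.8 RPKM in the WT libraries. Shares of a sum without Klf4 were not computed.

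**Figure D4:**
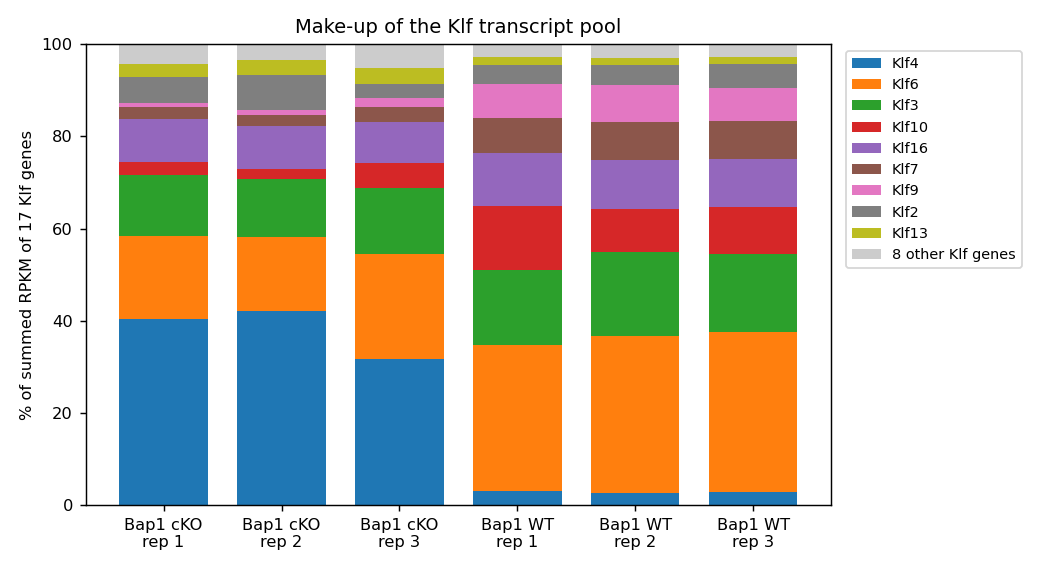
Share of each Klf gene in the summed RPKM of the 17 Klf genes, in percent, for each Bap1 cKO library (left) and each Bap1 WT library (right); the grey segment joins the genes not named in the legend. The Klf4 segment fills 31.7 to 42.1% of the cKO bars and 2.69 to 3.17% of the WT bars.

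Of the 7 other Klf genes, only Klf11 and Klf16 reached the minimum for testing. Klf11, a Sin3a-recruiting relative of Klf10, measured 3.34, 2.06 and 3.47 RPKM in the cKO libraries and 1.75, 1.67 and 1.47 RPKM in the WT libraries. Its call (log2 difference 0.57, limma Benjamini-Hochberg adjusted p = 0.0315) was lost under several alternatives, among them each single WT library left out, cKO replicate 1 or 3 left out, and chromosomes centred, where the difference was -0.0064. Klf16 did not pass (log2 difference 0.23, 95% interval -0.08 to 0.53). Klf12, a CtBP-recruiting repressor, measured 0.82, 1.89 and 0.68 RPKM in the cKO libraries and was listed at 0 in every WT library, under the minimum for testing. Klf8 measured 1.14, 1.12 and 1.11 RPKM in the cKO libraries and 0.55, 0.65 and 0.64 RPKM in the WT libraries, also untested, while Klf1, Klf14 and Klf17 reached at most 0.16 RPKM.

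The Sp factors share the zinc fingers and the binding site. Of 4 tested, 3 were higher, against 34.7% of all genes tested, and Sp1 did not pass. Sp4 reached the minimum for testing only through the cKO libraries. No Sp gene was lower under that minimum, while 2 were lower with a minimum mean of 0.1 RPKM and 3 with no minimum. Sp4 was highest in ratio, at 1.98, 1.98 and 2.73 RPKM in the cKO libraries and 0.54, 0.58 and 0.28 RPKM in the WT libraries (limma, Benjamini-Hochberg adjusted p = 0.00145). Its log2 difference of 1.14 was 0.56 with chromosomes centred and still passed. Sp2 was 1.67 times its WT mean and lost its call with chromosomes centred (adjusted p = 0.145 in limma), and Sp3 (log2 difference 0.37) lost its call in 9 alternatives. Sp1, the ubiquitous member, averaged 17.9 ± 0.241 RPKM in the cKO libraries and 18.2 ± 0.273 RPKM in the WT libraries (SD), with a 95% interval of the log2 difference of -0.20 to 0.15. Under the minimum for testing, and chosen after their values were seen, were Sp7 and Sp6. Sp7, the osteoblast factor osterix, was listed at 0 in all cKO libraries and at 0.68, 0.78 and 0.75 RPKM in the WT libraries. Sp6 measured 0.17, 0.16 and 0.15 RPKM in the cKO libraries and 1.16, 1.46 and 1.2 RPKM in the WT libraries.

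Of 9 corepressor and coactivator genes 5 were higher and 1 lower, against 34.7% and 26.5% of all genes tested, and 3 did not pass. The median log2 difference was 0.35 against 0.09 over all genes tested. The number higher was 3 without WT replicate 1, WT replicate 2 or cKO replicate 2. It was also 3 with no minimum, with the replicate block, with chromosomes centred and with the other scalings except equal totals. With chromosomes centred, with trimmed-mean scaling and with median-of-ratios scaling 2 were lower. Sin3a, the scaffold that Klf9, Klf10 and Klf13 recruit, averaged 22.8 ± 3.05 RPKM in the cKO libraries and 11 ± 1.38 RPKM in the WT libraries (SD; limma, Benjamini-Hochberg adjusted p = 0.000933), and its log2 difference of 0.99 was 0.65 with chromosomes centred. Its paralog Sin3b was the lowered gene, at 88.1 ± 12.1 RPKM in the cKO libraries and 126 ± 3.05 RPKM in the WT libraries. Ctbp1 and Ctbp2, the partners of Klf3, were 1.28 and 1.78 times their WT means, and both calls were lost with chromosomes centred (adjusted p = 0.0771 and 0.281 in limma).

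Genes that set the stability of Klf proteins went both ways. Of 9 tested, 3 were higher and 4 lower, against 34.7% and 26.5% of all genes tested. Without WT replicate 1 or 3, 2 were lower. Fbxw7, the ubiquitin ligase subunit that marks KLF5 for degradation in human cells, measured 71.25, 93.64 and 14.6 RPKM in the cKO libraries and 4.17, 6.29 and 5.51 RPKM in the WT libraries (limma, Benjamini-Hochberg adjusted p = 0.00762). All cKO libraries were above all WT libraries, with replicate 3 well below the other cKO libraries. Wwp1, another ubiquitin ligase of KLF5, was 1.76 times its WT mean and lost its call with chromosomes centred (adjusted p = 0.091 in limma). Btrc, a ubiquitin ligase subunit, averaged 5.8 ± 0.736 RPKM in the cKO libraries and 13.4 ± 0.998 RPKM in the WT libraries, and Smurf1 averaged 10.7 ± 2.62 RPKM in the cKO libraries and 18.5 ± 0.491 RPKM in the WT libraries (SD).

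The kinase route through MEKK3 and ERK5 to the MEF2 factors induces Klf2 and Klf4 in endothelium, and the CCM proteins restrain it. Of 10 tested genes of this route 5 were higher and 3 lower, against 34.7% and 26.5% of all genes tested. The number higher was 3 with any 1 WT library left out and with trimmed-mean, median-of-ratios or quantile scaling. Only 1 was lower without WT replicate 1 or 2 or cKO replicate 1 and with the replicate block. Map3k3, which encodes MEKK3, averaged 45.9 ± 4.32 RPKM in the cKO libraries and 18 ± 0.786 RPKM in the WT libraries (SD), and Mef2a averaged 55.2 ± 8.49 RPKM in the cKO libraries and 22.1 ± 0.482 RPKM in the WT libraries. Mef2a lies on chromosome 7, and its log2 difference of 1.27 was 0.63 with chromosomes centred. Ccm2, one of the restraining proteins, averaged 23.7 ± 0.737 RPKM in the cKO libraries and 41.7 ± 1.71 RPKM in the WT libraries, a log2 difference of -0.79 that was -1.21 with chromosomes centred. Krit1, its partner, went the other way, at 31.7 ± 5.27 RPKM in the cKO libraries and 17 ± 1.08 RPKM in the WT libraries. Mapk7, which encodes ERK5, did not pass (limma, Benjamini-Hochberg adjusted p = 0.23).

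Klf9 and Klf15 are known glucocorticoid-induced genes. Of the genes of that pathway 6 were tested, with 1 higher and 3 lower, against 34.7% and 26.5% of all genes tested. The receptor gene Nr3c1 averaged 13.9 ± 2.18 RPKM in the cKO libraries and 26.1 ± 0.705 RPKM in the WT libraries (SD; limma, Benjamini-Hochberg adjusted p = 0.00101). Hsd11b1, the enzyme that regenerates active glucocorticoid, averaged 0.39 ± 0.2 RPKM in the cKO libraries and 17.7 ± 2.63 RPKM in the WT libraries, and the receptor target Fkbp5 averaged 2.11 ± 0.248 RPKM in the cKO libraries and 5.7 ± 0.988 RPKM in the WT libraries. Sgk1, another target, was higher, at 492 ± 107 RPKM in the cKO libraries and 137 ± 11.6 RPKM in the WT libraries. Per1 and Tsc22d3 did not pass (adjusted p = 0.63 and 0.30 in limma after Benjamini-Hochberg adjustment).

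Of 8 tested genes reported elsewhere as Klf targets, 6 were lower and 2 higher, against 26.5% and 34.7% of all genes tested. These counts are set beside Klf levels without a test of the link. Endoglin (Eng), a reported Klf6 target, averaged 0.723 ± 0.206 RPKM in the cKO libraries and 39.4 ± 5.46 RPKM in the WT libraries. Thrombomodulin (Thbd) and S1pr1, both reported Klf2 targets, averaged 2 ± 0.736 and 0.227 ± 0.289 RPKM in the cKO libraries and 32.7 ± 3.25 and 6.56 ± 0.588 RPKM in the WT libraries (SD). Ccnd1 and Bcat2 were higher, at 1.68 and 2.19 times their WT means, and both calls were lost with chromosomes centred (adjusted p = 0.343 and 0.0881 in limma). The reported KLF4 target Cdh1 was at or near 0 in all libraries.

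The fat cell genes on which Klf factors act were split. Of 6 tested, 3 were higher and 3 lower, against 34.7% and 26.5% of all genes tested. Cebpb and Cebpd, which act early in fat cell formation, averaged 38 ± 28.9 and 7.67 ± 4.17 RPKM in the cKO libraries and 6.13 ± 0.784 and 1.92 ± 0.41 RPKM in the WT libraries (SD). Pparg, the later master regulator, averaged 0.127 ± 0.0961 RPKM in the cKO libraries and 64.3 ± 3.72 RPKM in the WT libraries, and Cebpa averaged 1.19 ± 0.667 RPKM in the cKO libraries and 8.49 ± 0.832 RPKM in the WT libraries. Of the Klf genes that promote fat cell formation, Klf4 and Klf15 were higher and Klf6 and Klf9 lower in the same libraries. Of those that restrain it, Klf7 was lower and neither Klf2 nor Klf3 passed.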

How the data were processed

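The authors deposited RPKM values, with 2 decimals, in 1 table of 55471 Ensembl identifiers and 6 columns, matched to samples by title. Tools listed in the submitters' processing notes are STAR 2.7.1a, RSEM 1.3.1 and cutadapt 2.8, with build GRCm38; the annotation version is not given in the sources used here. Per the labels' protocols, libraries were stranded, polyA-selected and read as 151 bp pairs. Gene symbols were found for 55144 identifiers, and GENCODE M21 supplied coordinates and transcript lengths. Read counts are not used here.

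Differences were tested with limma 3.58.1 (R 4.3.3) as a 2-sided test of log2(RPKM + 1), with genotype as the only term and a variance prior that follows the mean, where the mean over the 6 libraries reached 1 RPKM. Benjamini-Hochberg adjustment ran over all 12223 genes. Folds are ratios of mean RPKM. The procedure was tested on simulated data in which few genes changed and no chromosome was shifted. That setting differs from these data, where 61.2% of genes passed, so it does not give the error rate here. Depths were estimated from steps between low values of single-transcript genes of 800 to 3500 bp, less 150 bp. At those depths 87.3 to 91.5% of values lay within 0.2 of a whole fragment. Chance gives 40% at a fixed depth, but each depth was chosen by this share, so the share does not check the estimate. Floors cover counting error only. Alternatives were other pseudocounts, minimum means, scalings, variance priors, sample weights, a replicate block, centred chromosomes, a minimum log2 difference and each library left out.

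The members, the gene lists and the alternatives were chosen with earlier results of these data known, and the family sums and ratios after their values were seen. Genes named are the 10 Klf genes, Bap1, the other tested Klf and Sp genes, and up to 3 called genes per list and direction, most of which are given, with others named for comparison. Python 3.11.15, numpy 2.4.6, pandas 2.3.3, scipy 1.17.1 and matplotlib 3.10.9 were used.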

Additional observations from a re-analysis of the deposited data

How the results depend on the processing

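Of 197 values of the 10 Klf genes under the alternatives, 193 kept their direction and their side of the threshold. The exceptions were Klf2, which passed with sample weights (log2 difference 0.78) and without cKO replicate 3 (0.96), Klf6, which missed the threshold without WT replicate 3, and Klf3, whose sign turned with chromosomes centred (-0.0597). That centring also turned Klf11 (-0.0064), Sp1 (0.11) and Yap1 (-0.023), and scaling to equal totals turned Sp1 (0.0063). None of the turned values passed the test. Klf11 and Yap1 had passed as higher in the main fit (limma, Benjamini-Hochberg adjusted p = 0.0315 and 0.0117), so centring cost both calls. With a minimum mean of 5 RPKM, 1 Klf gene was higher, since Klf13 and Klf15 were no longer tested. With an absolute log2 difference of at least 1 as well, 2 Klf genes were lower, and over all genes tested 1632 were higher and 1499 lower. Leaving out each library in turn gave 3 to 4 Klf genes higher and 3 to 4 lower, and 3475 to 4517 of all genes higher and 2695 to 3588 lower.

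With the replicate number as a block, 3811 genes were higher and 2938 lower, and 3 and 4 of the Klf genes, while the calls of Klf11, Sp3, Map3k2 and Pdcd10 were lost. Same-numbered libraries did not deviate together (r of -0.02, 0.05 and -0.02), so the numbers were not taken as pairs. Depth limits Klf15 in the WT libraries, and 3 libraries per group limit all intervals.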
